A study of Mus musculus with 8 samples.

Results

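The genes Col1a1, Col1a2, Col3a1, Col5a1, Col5a2 and Col5a3 encode the chains of the fibrillar collagens of types I, III and V. They were chosen by symbol, 6 of the 32285 features counted, and their RNA was followed through the petrous temporal bone (PTB) and through the cerebellar paraflocculus and flocculus (PF/F) that lie beside it. Nuclei came from P5.5 mice of both sexes on a C57BL/6J background, either WT or Tbx1+/-, which carry a germline loss of one copy of the transcription factor gene Tbx1 in every cell. Each tissue had 2 WT and 2 Tbx1+/- libraries, and each library pooled tissue from 5 mice, so that the pools and not the mice or nuclei are the replicates. Nuclei were not sorted, and no animal received a treatment. Replicate 1 and replicate 2 of each group were separate batches of animals.

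Collagen chains assemble in triplets in the endoplasmic reticulum, are trimmed outside the cell and then pack side by side into fibrils. Type I collagen, a heterotrimer of the chains from Col1a1 and Col1a2, is the main protein of bone matrix and tendon. Type III collagen, a homotrimer of the Col3a1 chain, is typical of loose connective tissue, skin, vessels and the coverings of the brain. Type V collagen is a minor partner that starts type I fibrils and limits their width, and is built from the Col5a1, Col5a2 and, in fewer tissues, Col5a3 chains.

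In GRCm38 the Col1a1 gene (ENSMUSG00000001506) lies on the forward strand at chr11:94936224-94953042 and Col1a2 (ENSMUSG00000029661) on the forward strand at chr6:4504814-4541544. The Col3a1 gene (ENSMUSG00000026043, chr1:45311538-45349706, forward) and the Col5a2 gene (ENSMUSG00000026042, chr1:45374321-45503282, reverse) are neighbours that point towards each other across 24.6 kb. Col5a1 (ENSMUSG00000026837) lies forward at chr2:27886425-28039514 and Col5a3 (ENSMUSG00000004098) reverse at chr9:20770050-20815067. The spans differ widely, from 16.8 kb for Col1a1 to 153 kb for Col5a1. Counting included introns, so genes are ranked by level only per kb of gene span, and a ratio of UMIs between genes is compared across types and libraries without being read as an amount of chain. Col1a2, Col3a1 and Col5a2 each overlap 1 other annotated gene on the same strand (Gm43921, Gm47302 and Gm38211), with which reads may be shared, and their values are uncertain by that amount.

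Col3a1, Col5a1 and Col5a3 were the members with their highest PTB level in the same cell type by mean (CT1, described below), although for Col5a1 CT1 and osteoblasts were within their spread of each other (360 ± 28.2 and 328 ± 49.6 CPM), and the 150 bases before the start of each are shown so that their promoters can be compared. The sequences are RefSeq's for GRCm38.p6, read on the gene's strand at chr1:45311388-45311537 for Col3a1, chr2:27886275-27886424 for Col5a1 and chr9:20815068-20815217 for Col5a3. Capitals mark the motifs that were searched for on both strands. The CCAAT box is one, the TATA box in its form TATAAA another, and the GC box GGGCGG the last of them. Where the GC box lies on the other strand, its letters on the printed strand are CCGCCC.
Col3a1: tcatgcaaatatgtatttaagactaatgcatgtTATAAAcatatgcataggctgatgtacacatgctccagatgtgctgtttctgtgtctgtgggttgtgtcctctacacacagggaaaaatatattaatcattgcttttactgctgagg
Col5a1: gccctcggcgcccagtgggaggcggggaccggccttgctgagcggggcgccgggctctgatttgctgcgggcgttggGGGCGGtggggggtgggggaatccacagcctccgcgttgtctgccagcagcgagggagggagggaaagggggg
Col5a3: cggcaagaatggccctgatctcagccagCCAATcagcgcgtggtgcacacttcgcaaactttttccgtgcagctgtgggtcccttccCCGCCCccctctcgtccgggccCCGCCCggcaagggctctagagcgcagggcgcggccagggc

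The 3 promoters had little in common. Over the 250 bases before the start, GC content was 35.2% for Col3a1, lower than in all but 5.00% of 32851 RefSeq promoters, against 76.4% for Col5a1 and 62.8% for Col5a3, where the median of all promoters was 52.4%. Col3a1 held TATAAA 117 bases before the start, a motif found on either strand in 12.4% of promoters. Col5a1 held GGGCGG 73 and, on the other strand, 205 bases before the start, and Col5a3 held it on the other strand 63 and 41 bases before the start (32.7% of promoters hold it). The CCAAT box, present in 33.8% of promoters, lay 122 bases before the start of Col5a3. TGTGGT, in 14.0% of promoters, was searched for on both strands as well and was not among these letters. A match is a run of letters and not a measured binding site. Col1a2 was the only other member in the promoter table, and Col1a1 and Col5a2 had no entry.

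The PTB libraries held 66835028 to 88677309 unique molecular identifiers (UMIs, counted molecules) and 5981 to 9977 annotated nuclei, and the PF/F libraries 44713226 to 60627200 UMIs and 9153 to 13835 annotated nuclei. At most 0.50% of the annotated barcodes of the smaller library recurred in another. Tbx1 itself was at 38.9 and 39.4 counts per 1000000 UMIs (CPM) in the WT PTB libraries and at 26.3 and 35.7 CPM in the Tbx1+/- ones, but which exons the allele lacks is not given in the sources used here, so 3′ counts do not check the genotype. The 7 osteoclast markers summed to 9460 to 11404 CPM in osteoclasts against 483 to 1037 CPM in osteoblasts. In matured chondrocytes 11 chondrocyte markers summed to 10670 to 23143 CPM, given here without another type beside them. CP1 is labelled a chondrocyte progenitor, but 10 osteoblast markers summed to 13027 ± 311 CPM there (SD, n = 4 libraries). That level was passed only in hypertrophic chondrocyte/osteoblast nuclei, osteoblasts and matured osteoblasts.

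Levels below are CPM of the UMIs summed over all nuclei of a type in a library, and values over libraries run in the order WT replicate 1, WT replicate 2, Tbx1+/- replicate 1, Tbx1+/- replicate 2. The cell types were clustered on the same RNA, so levels by type are a description with no test. The deposited counts are not corrected for free RNA, which is rich in bone collagen. Osteoclasts, blood-lineage cells that resorb bone and are not known for making fibrillar collagen, therefore serve as the PTB background, and differentiated granule neurons as the PF/F background.

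Type I collagen RNA was highest in osteoblasts, the cells that lay down bone matrix. In the 5813 osteoblast nuclei Col1a1 was at 13717, 7993, 8106 and 7580 CPM. The 900 nuclei of matured osteoblasts and osteocytes gave 15176, 6708, 8042 and 7482 CPM. WT replicate 1 stood above the other 3 libraries in both types, and the other WT library overlapped the Tbx1+/- ones. The means of matured osteoblasts (9352 ± 3921 CPM, n = 4) and osteoblasts (9349 ± 2921 CPM) did not differ beyond their spread, and only 1 of 4 libraries had them in that order. Osteoblasts stood above the next type, matured chondrocytes (4410 ± 520 CPM), in 4 of 4 libraries and by more than the larger SD. Matured chondrocytes were the shallowest PTB type, with medians of 2339 to 2962.5 UMIs, against 4963 to 7105 UMIs in the osteoclast background. The part of depth and free RNA in their rank was not tested, for Col1a1 or for Col1a2 below.

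Col1a2 had the same leading types as Col1a1 but another order below them, with CP3 at rank 5 instead of 13. Its level was 10767, 7660, 8351 and 7627 CPM in osteoblasts, so that WT replicate 1 was again the highest and the genotypes overlapped. Means were 8601 ± 1482 CPM in osteoblasts, 8490 ± 2312 CPM in matured osteoblasts and 4055 ± 359 CPM in matured chondrocytes. From there down the CT and CP types ran from 3879 ± 750 CPM in CT1 to 2437 ± 654 CPM in CP5, with no gap between neighbours above their SD, although some neighbours, such as CP2 above CT3, kept their order in 4 of 4 libraries. Matured chondrocytes, CT1 and CP3 (4055, 3879 and 3865 CPM) were within their spread of each other for Col1a2.

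The background of both type I genes was large. Osteoclasts held Col1a1 at 2570, 1386, 2775 and 1812 CPM and Col1a2 at 2212, 1238, 2625 and 1605 CPM, higher in both replicate 1 libraries than in both replicate 2 libraries. The osteoblast level was 2.92 to 5.77 times the osteoclast level for Col1a1 and 3.18 to 6.19 times for Col1a2. Barcodes outside the annotation with under 1000 detected genes had 10391 to 14711 CPM of Col1a1, above osteoblasts of the same library in 4 of 4 libraries. Free RNA and shallow nuclei were not told apart among these barcodes. With every nucleus thinned to 1000 UMIs, 98.4% of osteoblast nuclei and 81.4% of osteoclast nuclei had a Col1a1 UMI (means of 4 libraries), at median depths of 4340 to 5356 and 4963 to 7105 UMIs before thinning. A Col1a1 UMI in a single PTB nucleus thus did not set the types apart.

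Col3a1, the type III chain, had a different order from type I. It was highest in CT1, a connective tissue type of 2643 nuclei, at 2292, 1530, 1877 and 1073 CPM. Both replicate 1 libraries exceeded both replicate 2 libraries. The genotypes overlapped, although within each batch the Tbx1+/- library was the lower one. The CT1 mean of 1693 ± 518 CPM exceeded that of CT2 (1007 ± 326 CPM) in 4 of 4 libraries, and CP1 (865 ± 296 CPM) and CP4 (757 ± 205 CPM) came next without clear gaps. Osteoblasts ranked near the bottom at 542, 223, 506 and 208 CPM, which was 1.02 to 1.58 times the osteoclast level of 530, 152, 397 and 131 CPM. Thinned to 1000 UMIs, 66.2% ± 10.9 of CT1 nuclei had a Col3a1 UMI (93.3% unthinned), against 28.8% ± 13.8 of osteoblast and 24.9% of osteoclast nuclei.

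The 3 type V genes did not share an order. Col5a2 was an osteoblast gene, at 3369, 3317, 3223 and 3255 CPM there, with no library standing apart. Its level stepped down to matured osteoblasts (2028 ± 145 CPM), CP1 (1382 ± 78.8 CPM) and CT1 (1237 ± 88.3 CPM), and each of these steps held in 4 of 4 libraries and exceeded the larger SD. Osteoclasts were at 418, 291, 529 and 391 CPM, and the osteoblast level was 6.09 to 11.4 times theirs, more than for type I. In thinned nuclei a Col5a2 UMI was present in 90.5% ± 0.631 of osteoblasts (99.6% unthinned) and 29.2% ± 6.10 of osteoclasts (75.3% unthinned).

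Col5a1 peaked in both CT1 and osteoblasts. It was at 366, 381, 373 and 319 CPM in CT1 and at 394, 312, 332 and 275 CPM in osteoblasts. CT1 was higher in 3 of 4 libraries, with means (360 ± 28.2 and 328 ± 49.6 CPM) closer than the larger SD. Both stood above CP1 (209 ± 35.4 CPM) in the mean, and osteoclasts were at 52.3 to 90.1 CPM.

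Col5a3 was rare and concentrated in CT1. There it was at 67.1, 56.0, 64.2 and 46.7 CPM, 9.19 to 36.1 times the osteoclast level of 1.55 to 7.10 CPM. The next types, hypertrophic chondrocyte/osteoblast nuclei (20.8, 16.6, 16.7 and 9.60 CPM) and CP5 (15.0, 17.7, 11.4 and 12.8 CPM), overlapped each other and lay below every CT1 library. In osteoblasts Col5a3 was at 2.48 to 8.0 CPM, 0.734 to 1.6 times the osteoclast level. Only 4.28% of thinned CT1 nuclei had a Col5a3 UMI (17.0% unthinned), beside 0.414% of osteoclasts.

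**Figure D1:**
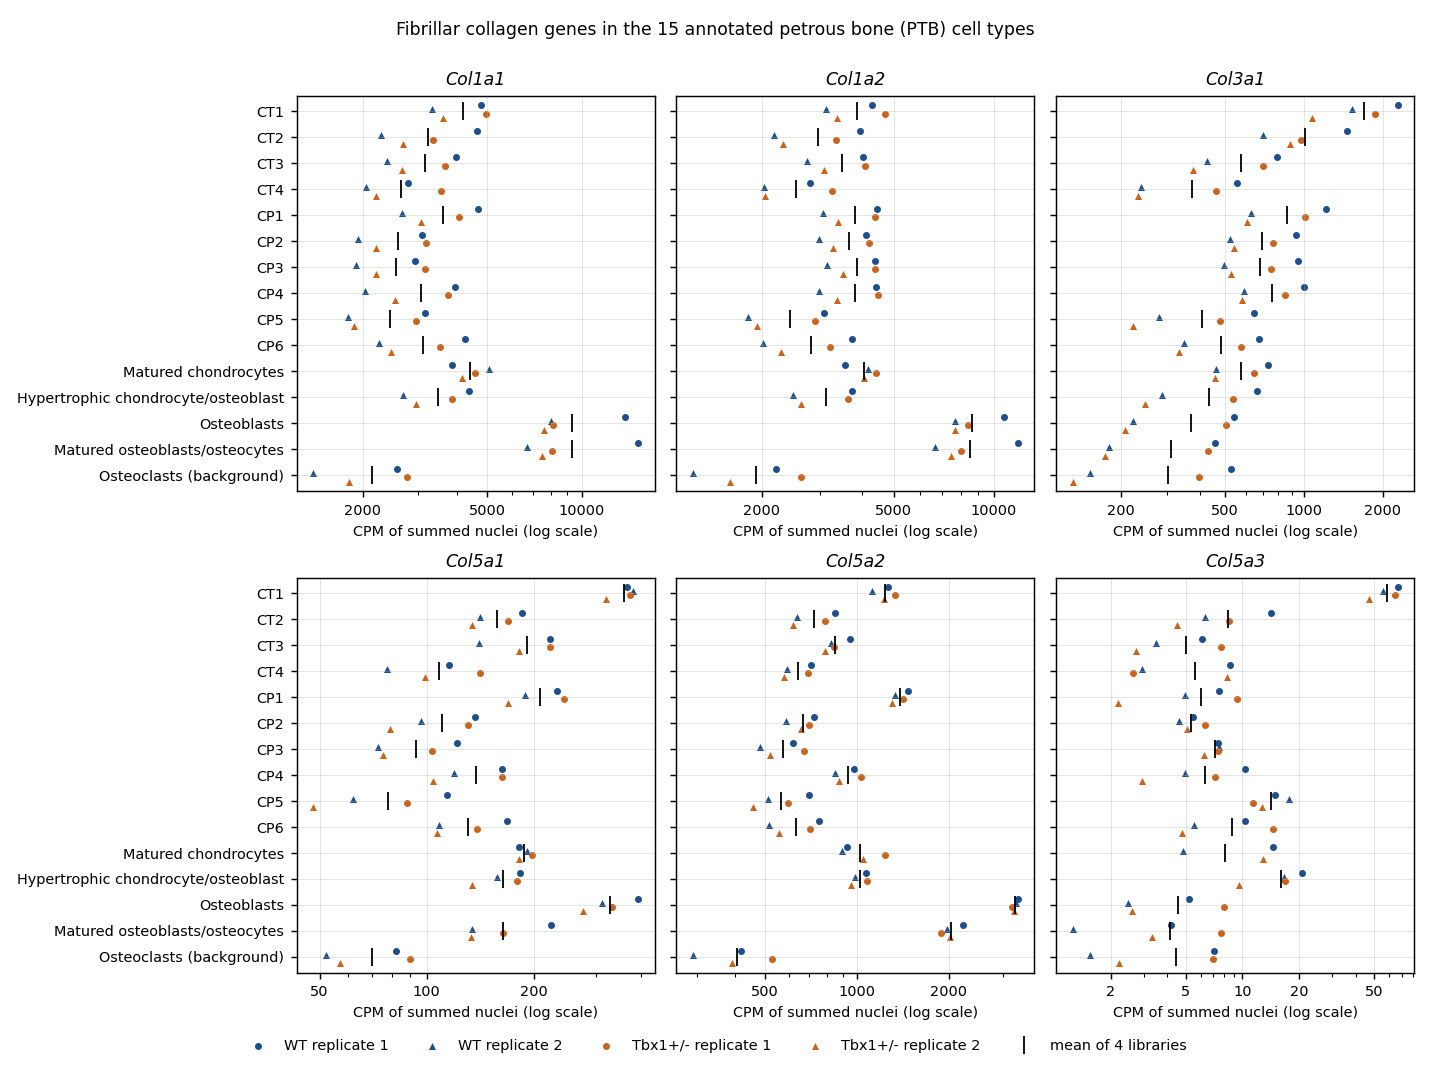
Level of each gene (x axis, CPM of the summed nuclei, log scale) in the 15 PTB cell types (y axis), with a point for each library, circles for replicate 1, triangles for replicate 2 and a bar for the mean of 4 libraries. Col1a1, Col1a2 and Col5a2 reach furthest right in the osteoblast rows, Col3a1 and Col5a3 in CT1, and Col5a1 in both, while circles lie right of triangles in most rows of Col3a1.

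Per kb of gene span, the type I genes led in both osteoblasts and CT1. In osteoblasts the mean levels were 556 CPM per kb for Col1a1, 234 for Col1a2, 25.5 for Col5a2, 9.68 for Col3a1, 2.14 for Col5a1 and 0.102 for Col5a3. In CT1 the same 6 stood at 248, 106, 9.59, 44.4, 2.35 and 1.30 CPM per kb, so Col3a1 ranked above Col5a2 there and below it in osteoblasts. Dividing by span treats intron and exon reads alike, and the true share of each is unknown.

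Where a gene's UMIs lay depended on the number of nuclei as well as on the level. Osteoblasts, 20.9% of all annotated UMIs, held 42.3% ± 5.44 of the Col1a1 UMIs, 39.6% ± 5.35 of Col1a2, 49.0% ± 6.84 of Col5a2 and 36.0% ± 5.76 of Col5a1 (means of 4 libraries), but 12.2% ± 2.58 of Col3a1 and 8.72% ± 3.41 of Col5a3. The 4 CT types together, 15.8% of UMIs, held 28.2% ± 7.09 of the Col3a1 and 38.0% ± 13.4 of the Col5a3 UMIs. The 6 CP types, 38.9% of UMIs, held the largest part of Col3a1, 44.5% ± 5.69. CT1 alone, with 6.50% of UMIs, held 32.1% of the Col5a3 UMIs, between 11.1% and 47.8% in single libraries. The share of each gene held by osteoblasts was therefore above the osteoblast share of all UMIs for 4 members and below it for Col3a1 and Col5a3.

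**Figure D2:**
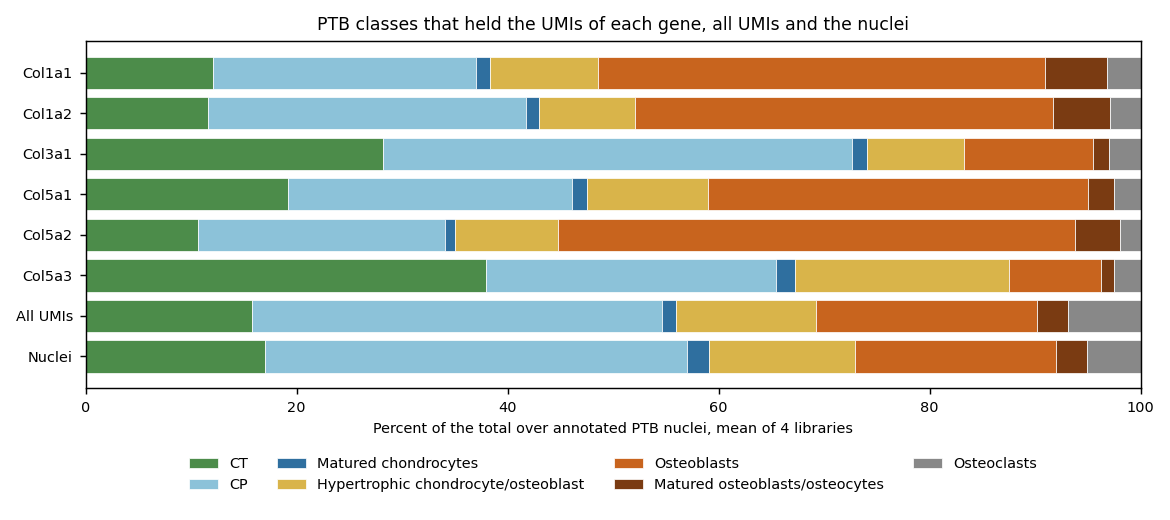
Percent of the UMIs of each gene, of all UMIs and of the nuclei (x axis, mean of 4 PTB libraries) that fell in each of 7 classes (colours), with 1 bar per gene (y axis). Osteoblasts take 42.3% of the Col1a1 and 49.0% of the Col5a2 bar but 12.2% of the Col3a1 bar, against 20.9% of all UMIs.

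The balance of the chains also varied by type. The ratio of Col1a1 to Col1a2 UMIs, not corrected for length, was lowest in CP3 (0.655 ± 0.0498) and CP2 (0.704 ± 0.0549), against 1.07 ± 0.0243 in CT1 and 1.12 ± 0.0438 in osteoclasts, and the 4 libraries of CP3 and CP2 lay below all 4 of CT1. In osteoblasts it was 1.27, 1.04, 0.971 and 0.994, with WT replicate 1 apart from the others. Barcodes under 1000 genes had a ratio of 1.36 ± 0.0878, higher than in any annotated type. The ratio of Col3a1 to the sum of Col1a1 and Col1a2 fell from 0.209 ± 0.0445 in CT1 to 0.0202 ± 0.00801 in osteoblasts, and the background in osteoclasts (0.0702) lay between them.

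**Figure D3:**
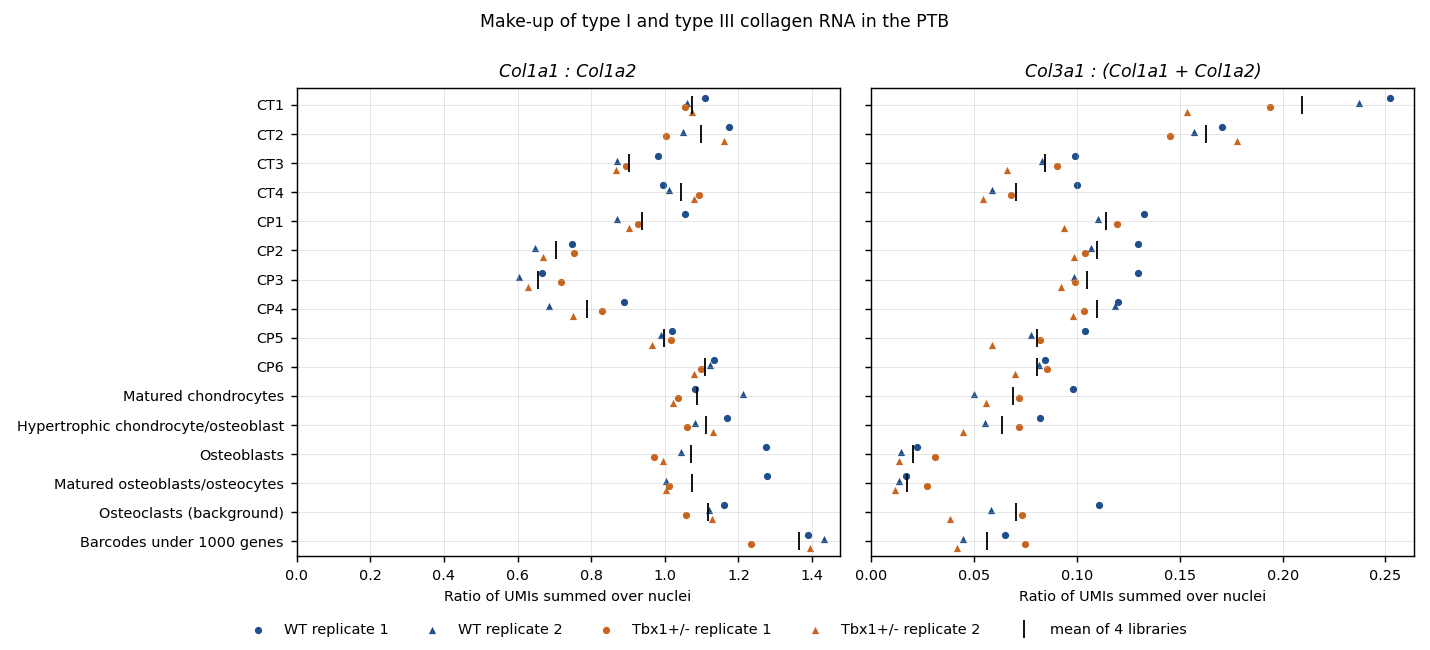
Ratio of Col1a1 to Col1a2 UMIs (left x axis) and of Col3a1 to the sum of both (right x axis) in the 15 PTB types and in barcodes under 1000 genes (y axis), a point for each library and a bar for the mean. CP2 and CP3 lie furthest left in the left panel, and CT1 lies furthest right and both osteoblast types furthest left in the right panel.

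Over the 15 PTB types, the mean log2(CPM + 1) of Col1a1 and Col1a2 had a Pearson r of 0.916, and Col1a1 and Col5a2 of 0.939. Col3a1 followed Col1a1 at -0.14 and its neighbour Col5a2 at 0.019, but Col5a3 at 0.572. These r values describe 15 points that share libraries and free RNA. Among 6626 genes compared, those most like Col1a1 were Ibsp, which encodes bone sialoprotein (r = 0.945), Glg1 (0.940) and Col5a2. The nearest to Col1a2 were Snhg18 (0.951), Lox, which encodes the enzyme that cross-links collagen (0.928), and Sparc, a collagen-binding bone protein (0.923). Zfp260 (0.95), Gpr153 (0.942) and Col1a1 were nearest to Col5a2.

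Col3a1 kept other company, with Col6a2 (0.876) and Col6a1 (0.870), chains of the microfibrillar type VI collagen, and Kifap3 (0.865) leading. The nearest to Col5a1 were Lgals1 (0.877), Zfp9 (0.857) and P4ha2, a subunit of prolyl 4-hydroxylase (0.855). Col5a3 had no match above 0.814, which was Dsc3, followed by Dlk1 (0.810) and Chst9 (0.805).

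In the PF/F the members were low overall and concentrated in a few types. Meningeal cells, the fibroblasts of the brain's coverings, were 706 nuclei and held 64.6% ± 6.54 of the Col3a1 UMIs, 46.5% ± 13.6 of Col1a1 and 43.5% ± 13.2 of Col1a2, against 1.49% of all UMIs. Col3a1 was at 700, 998, 840 and 1008 CPM there, and at 6.42 CPM on average in granule neurons. Col1a1 was at 257, 475, 294 and 402 CPM and Col1a2 at 306, 735, 369 and 466 CPM. For all 3 genes both replicate 2 libraries exceeded both replicate 1 libraries, the reverse of their order in CT1, and the genotypes overlapped.

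Make-up differed from that of the bone as well: the ratio of Col3a1 to the sum of Col1a1 and Col1a2 was 1.12 ± 0.205 in meningeal cells, above every PTB type. Per kb of span, Col3a1 (23.2 CPM per kb) and Col1a1 (21.2) were close in meningeal cells, above Col1a2 (12.8), and their order was not kept in WT replicate 2, where Col1a1 was ahead. Thinned to 1000 UMIs, 51.6% of meningeal nuclei had a Col3a1 UMI (77.3% unthinned), against 0.658% of granule neurons. Meningeal depth was 2806 to 3289 UMIs and granule neuron depth 2572 to 3483 UMIs at the median. Pericytes, the contractile cells around capillaries, came second for Col3a1 at 230, 118, 277 and 207 CPM, from only 74 nuclei.

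Col5a2 had a second site in the PF/F outside the mesenchyme. Progenitors of GABA interneurons (2049 nuclei) had it at 193, 214, 200 and 212 CPM, nearly level across the libraries, in a range that lay below 3 of the 4 pericyte libraries and every meningeal library (223, 539, 349 and 376 CPM). They held 32.8% ± 5.63 of the Col5a2 UMIs and 3.79% of all UMIs. Each other member was below its own meningeal mean in these nuclei, with Col1a2 at 11.1 against 469 CPM, Col3a1 at 9.18 against 887, Col1a1 at 6.23 against 357, Col5a1 at 1.44 against 61.3 and Col5a3 at 1.06 against 7.57. In thinned nuclei 15.2% ± 1.86 had a Col5a2 UMI (36.4% unthinned), against 0.278% of granule neurons (0.98% unthinned). The neuron markers summed to 5653 to 6963 CPM in these progenitors, above the 2036 to 2318 CPM of meningeal cells.

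Col5a1 had its own site in Purkinje cells, the output neurons of the cerebellar cortex. The 1299 nuclei had it at 35.4, 43.9, 35.7 and 41.2 CPM and held 36.2% ± 7.81 of its UMIs, with 5.42% of all UMIs. Meningeal cells were higher, at 46.8, 63.4, 59.5 and 75.6 CPM, in 4 of 4 libraries. Granule neurons were at 1.53 CPM on average. Purkinje nuclei were deep, with medians of 5653 to 8533 UMIs, and after thinning to 1000 UMIs 4.18% ± 1.08 had a Col5a1 UMI (21.7% unthinned), against 0.153% of granule neurons.

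Col5a3 in the PF/F was highest in early rhombic lip nuclei, the zone that gives rise to granule cells and other glutamatergic neurons, at 26.0, 35.4, 16.3 and 18.8 CPM from 59 UMIs. Pericytes (21.5 ± 18.3 CPM) did not differ from it beyond their spread. Astroglia held most of its UMIs, 51.5% ± 6.43, at a low but even 8.47, 8.31, 6.94 and 8.77 CPM, against 0.366 CPM in granule neurons. Astroglia also held 21.3% ± 3.54 of the Col1a2 UMIs at 20.7 to 24.1 CPM. They were a large type of 7152 nuclei, and their share of all UMIs is not set beside these shares. In early rhombic lip nuclei thinned to 1000 UMIs, 0.996% had a Col5a3 UMI, too few to read as a level per nucleus.

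**Figure D4:**
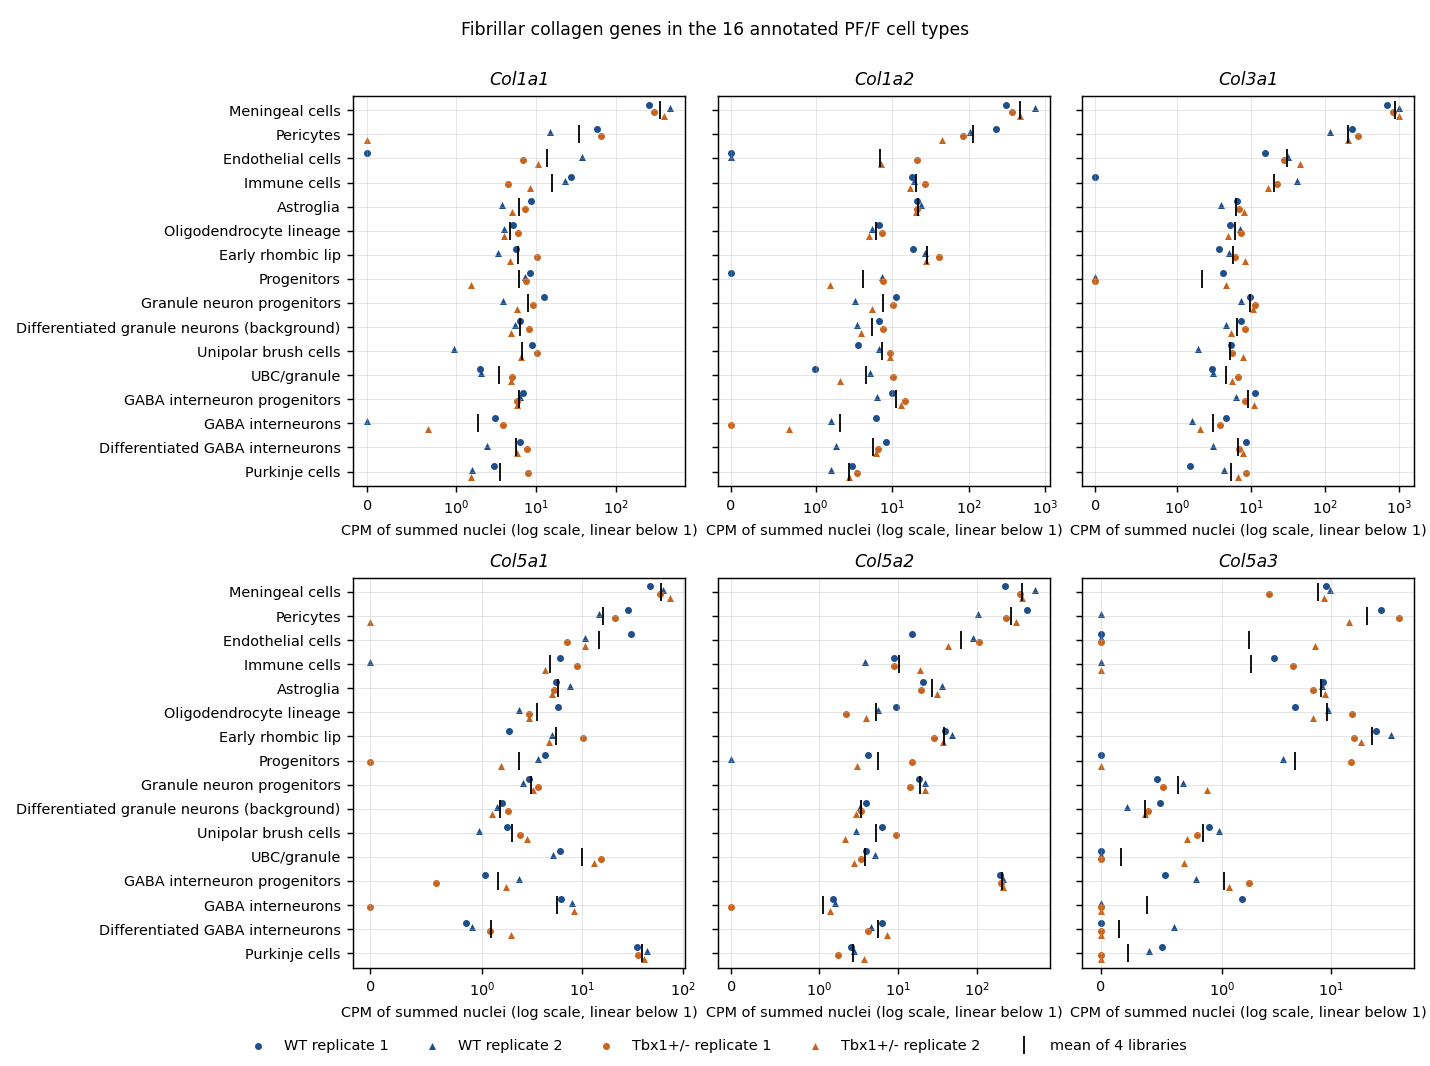
Level of each gene (x axis, CPM of the summed nuclei, log scale but linear below 1) in the 16 PF/F types (y axis), a point for each library and a bar for the mean. Meningeal cells lie furthest right for Col1a1, Col1a2, Col3a1 and Col5a1, while Col5a2 also rises in GABA interneuron progenitors (205 CPM), Col5a1 in Purkinje cells (39.1 CPM) and Col5a3 in early rhombic lip nuclei (24.1 CPM).

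Over the 16 PF/F types and 8558 genes, the genes most like Col3a1 were Igf2 (r = 0.973), Tbx18 (0.970) and Nupr1 (0.969), and those most like Col1a1 were Slc6a13 (0.968), Gjb6 (0.944) and Slc22a6 (0.930). Col1a2 was nearest to Copz2 (0.933), Col4a6 (0.921) and Itih5 (0.92). Col5a2 was nearest to Mmp14 (0.922), which encodes a membrane collagenase, Fstl1 (0.92) and Ddr2 (0.909), a fibrillar collagen receptor. Col5a1 had no gene above 0.799 (Nrk, then Mageb18 at 0.776 and Slc7a11 at 0.756), and Col5a3 was nearest to Cfap20 (0.903), Cc2d2a (0.879) and Antxr1 (0.858). These points share libraries and, for rare genes, few UMIs.

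The study asked whether loss of one Tbx1 copy changes the RNA of cell types in the PTB and PF/F, and the members were read for that question in sums over each class. A gene was called at a Benjamini-Hochberg adjusted p under 0.05 over all genes tested and a change of more than 1.5-fold, in edgeR's quasi-likelihood test of 2 libraries against 2. No member that passed the filter on low counts was called in any class of either tissue, with 5 or 6 members tested in each class except pericytes (2) and endothelial cells (1). In these fits 0% of all genes were called (0 of 20250 in all PTB nuclei, 15573 in osteoblasts, 15889 in CT, 17894 in CP and 10002 in meningeal cells, likewise in the others), so that the members' 0 is read against a background of 0. Between 15 genes in pericytes and 288 in osteoclasts had an unadjusted p under 0.05, and DESeq2 called 0 genes in every class as well, with 2 to 115 at an unadjusted p under 0.05. The p-values measure only the spread between pools. In these fits, which have no batch term, that spread includes the difference between batches. With the replicate block 0 members were called, beside 24 genes in CT and 24 in meningeal cells. In CT 142 of 15889 genes had an edgeR unadjusted p under 0.05 without the block, and 954 had with it. The 142 are fewer than that threshold would pass if no gene differed. The 0 called without the block therefore does not show that no gene changed.

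Col1a1 in osteoblasts had a log2 change of -0.49 (SE 0.27) in Tbx1+/- against WT and an edgeR adjusted p of 1.00. This value rested on WT replicate 1, the library at 13717 CPM, since the other 3 lay between 7580 and 8106 CPM. Without it the log2 change was -0.05, and without WT replicate 2 it was -0.84, with an edgeR adjusted p of 0.0147, where 0.199% of all genes were called lower. Leaving out a library leaves its genotype with 1 batch, so genotype and batch are not balanced in such a fit, and with the replicate block the log2 change was -0.43 (SE 0.18) and not called. Over all 4 libraries the values were -0.22 (SE 0.21) for Col1a2 and -0.06 (SE 0.12) for Col5a2, whose 4 libraries differed least.

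Some other matrix genes were also highest in that library, while Col5a2 was nearly level and the export gene Sec24d was lowest there. The 10 osteoblast markers summed to 22349, 14695, 14017 and 15681 CPM in osteoblasts, so they too were highest in WT replicate 1. Serpinh1, the collagen chaperone HSP47, was at 776 CPM in that library against 383 to 448 CPM in the others, and Sparc at 3801 against 2087 to 2318 CPM. The part of this difference between libraries in the Col1a1 value was not tested. After subtracting each library's osteoclast level, the Col1a1 excess in osteoblasts was 11147, 6608, 5331 and 5767 CPM, a log2 difference of -0.63 with no test. Both WT libraries then lay above both Tbx1+/- ones, whereas the genotypes overlapped before the subtraction. The osteoclast level subtracted was the higher one in the Tbx1+/- library of each batch. This step was added after seeing the data, and the share of all genes with this order after it was not counted. The log2 difference of the excess was -0.34 for Col1a2, -0.31 for Col5a1 and -0.11 for Col5a2. For Col3a1 it was 1.63, from an excess of 12.3 CPM in WT replicate 1.

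Matured osteoblasts, from the same pools and so no independent repeat, had a Col1a1 log2 change of -0.53 (SE 0.34). It became 0.17 without WT replicate 1 and -0.99 without WT replicate 2. The latter fit has a lone batch 1 library on its WT side, so genotype and batch are not balanced in it. The median log2 change of the 5 members tested was -0.63 there, beside 0.01 for all genes. The genotype effect on Col1a1 was also compared between classes in 1 fit with the library as a block. The difference of the log2 changes, osteoblasts less CP, was -0.51 (SE 0.12) for Col1a1 and -0.28 (SE 0.10) for Col1a2. Neither was called (edgeR adjusted p = 1.00 for both), nor was any of 17779 genes, of which 628 had an unadjusted p under 0.05. For CT against CP the fit called 0 of 18021 genes (466 with an unadjusted p under 0.05).

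Col3a1 in CT was at 1774, 780, 1334 and 590 CPM, with a log2 change of -0.41 (SE 0.52). Within batches both differences pointed down, but the difference between batches was larger than that between genotypes. The log2 change was 0.28 without WT replicate 1 and 0.05 without Tbx1+/- replicate 2. Genotype and batch are not balanced in those fits, so batch enters the sign of these values. With the replicate block the log2 change was -0.41 (SE 0.13, edgeR adjusted p = 0.377). The share of CT1 among CT nuclei was also lower in the Tbx1+/- library of each batch (64.5% and 56.5% in batch 1, 31.5% and 15.2% in batch 2), and in CT1 alone the log2 change of Col3a1 was -0.37. The part of this make-up in the chain ratios of CT was not tested. In CP the 6 members lay between -0.18 and 0.05 on the log2 scale. Summed over all PTB nuclei, where fewer cells of a type and less RNA per cell cannot be told apart, Col3a1 was at 965, 427, 737 and 367 CPM and the members' median log2 change was -0.13, beside 0.00 for all genes. Col3a1 was lower in the Tbx1+/- library of both batches, and the median was -0.12 with the replicate block. Without WT replicate 1 it was 0.24 and without Tbx1+/- replicate 2 it was 0.12, in fits whose genotypes are not balanced for batch, while the members' median change between batches was -0.47. Osteoblasts gave a median of -0.18 beside 0.01 (-0.16 with the block), which was -0.0038 without WT replicate 1, -0.43 without WT replicate 2 and -0.44 without Tbx1+/- replicate 1.

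In osteoclasts Col5a2 had a log2 change of 0.37 (SE 0.21), in the type whose level serves as the background. It was 0.12 without WT replicate 2, 0.14 without Tbx1+/- replicate 1 and 0.65 without WT replicate 1 (edgeR adjusted p = 0.00634). In that last fit 4 of 6 members were called higher, where 1.17% of all genes were, but its WT side was a batch 2 library alone. In osteoclasts 4 members were called lower in batch 2 (Col3a1 at -1.69), so genotype and batch cannot be told apart in these calls, and the fit with the replicate block called 0 members. In all PF/F nuclei Col3a1 was at 16.4, 18.7, 23.6 and 22.8 CPM, both Tbx1+/- libraries above both WT libraries, with a log2 change of 0.42 (SE 0.12), an edgeR unadjusted p of 0.0145 and an adjusted p of 1.00. The share of all genes with the same order of libraries as Col3a1 was not counted. In the meningeal cells that hold most of this RNA the log2 change was 0.13 (SE 0.30), and the meningeal nuclei numbered 155, 123, 227 and 201. The part of the number of nuclei in the tissue-wide value was not tested.

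The chain ratios were compared between genotypes with an exact permutation test, which for 2 libraries against 2 cannot give a p below 0.333 and so could not show a difference. For Col1a1 to Col1a2 the log2 difference was -0.23 in osteoblasts (exact two-sided permutation p = 0.333), -0.39 in batch 1 and -0.07 in batch 2, and -0.02 in CT (exact p = 1). For Col3a1 to type I it was -0.41 in CT (exact p = 0.667), -0.40 and -0.43 within the batches, and 0.21 in osteoblasts (exact p = 1). Over the 6 ratio comparisons every adjusted p was 1.

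Genes that process collagen were read from 5 lists. None of their members was called by genotype in any class: 20 genes for procollagen modification and folding, 16 for export, propeptide cleavage and cross-linking, 19 for fibril-associated proteins, 8 receptors and 10 measured genes for breakdown in osteoblasts. Median log2 changes in osteoblasts were -0.16, 0.00, -0.14, 0.03 and 0.05 in that order, beside 0.01 for all genes. Of the most abundant list genes, Sparc (-0.44, SE 0.28) and Serpinh1 (-0.42, SE 0.32) had values near that of Col1a1, and Sec24d, which helps load procollagen into transport vesicles, had 0.09 (SE 0.11) with 397, 446, 449 and 457 CPM. Ppib, a collagen-folding cyclophilin, was at -0.41, Lox at -0.28, Itgb1 at -0.19, Plod2 at -0.14 and Fn1 at -0.09. Bmp1 (0.07), Mrc2, the receptor that takes up collagen fragments (0.09), Fap (0.10) and Mmp9 (0.20) were on the other side of 0.

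Batch was compared as replicate 2 against replicate 1 with genotype in the fit, which leaves 1 residual degree of freedom and borrows its spread across genes. In CT 5 of 6 members were called lower in batch 2, where 4.62% of all genes were: Col5a3 by -1.46 (SE 0.18), Col3a1 by -1.17 (SE 0.13, edgeR adjusted p = 9.7e-05), Col1a1 by -0.72, Col5a1 by -0.67 and Col1a2 by -0.66 on the log2 scale. Col5a2, at -0.48, was under the 1.5-fold limit. CT1 made up 64.5% (exact 95% interval 62.3 to 66.5), 31.5% (28.7 to 34.4), 56.5% (54.0 to 58.9) and 15.2% (12.8 to 18.0) of the CT nuclei, and was less frequent in both batch 2 libraries and, within each batch, in the Tbx1+/- library. The intervals cover counting error only, not the spread between pools. Within CT1 only Col3a1 was called lower (-0.69, SE 0.19, edgeR adjusted p = 0.03), beside 1.75% of all genes, and Col5a3 was at -0.33 and Col5a1 at -0.07.

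Col3a1 was the member that moved with batch in most classes. It was called lower in batch 2 in osteoblasts (-1.28, SE 0.09, edgeR adjusted p = 0.0240), where 0.18% of all genes were, and in matured osteoblasts (-1.30, against 0.6%), hypertrophic chondrocyte/osteoblast nuclei (-1.16, against 0.939%), CP (-0.79, with Col1a1 at -0.67, against 1.36%) and osteoclasts (-1.69, against 2.32%). Its level was near the osteoclast background in osteoblasts (1.02 to 1.58 times) and in matured osteoblasts (311 against 302 CPM). The part of free RNA in these calls was not tested. The call of Col1a1 in CP was lost with RLE factors (edgeR adjusted p = 0.0682), where 80 rather than 243 genes were called lower. Osteoclasts also had Col1a1, Col1a2 and Col5a1 called lower, at -0.74, -0.76 and -0.64. In matured chondrocytes no member was called, where 1.22% of genes were, and Col3a1 was at -0.58. Over all PTB nuclei Col3a1 (-1.10) and Col5a3 (-1.14) were called lower, beside 1.04% of genes. Col5a2 in osteoblasts was at 0.00 (SE 0.10).

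Other RNA moved with batch in the same direction. The 7 muscle markers, from a tissue that is not among the annotated PTB types, summed to 279, 56.4, 272 and 31.7 CPM in osteoblasts and to 383, 88.5, 437 and 65.8 CPM in CT1, none of the 7 at 0. The 11 connective tissue markers summed to 1596, 1014, 1207 and 914 CPM in osteoblasts. Mitochondrial UMIs were 1.43%, 0.604%, 1.02% and 0.718% of the annotated PTB nuclei. Both batch 1 libraries were above both batch 2 libraries in each of these, and their part in the batch difference of Col3a1 was not tested. Col3a1 in barcodes under 1000 genes followed the same order, at 1638, 916, 1409 and 771 CPM.

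Genes of all 5 collagen lists were called by batch in CT, where 4.62% of all genes were called lower and 2.49% higher in batch 2. Of 19 fibril-associated genes 9 were lower, Lum (-1.19, SE 0.12), the fibril-spacing proteoglycan lumican, the type VI chains Col6a1 (-0.70), Col6a2 (-0.69) and Col6a3 (-0.65), Dpt (-1.99), Tnxb (-0.97), Aspn (-0.88), Sparc (-0.73) and Kera (-2.70), the keratan sulphate proteoglycan best known from cornea and tendon. Of 20 modification genes 4 were called lower (P3h4 at -0.81, P4hb at -0.70, Serpinh1 at -0.67 and Crtap at -0.62). Of 16 export and cross-linking genes Lox (-0.90), Pcolce2 (-0.72) and Loxl2 (-0.67) were lower and Adamts14 was higher (0.59). The receptor Itga2 was higher (0.79), and Mmp2 (-0.64) and Timp2 (-0.63) were the called ones of 9 breakdown genes.

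In CP, 6 of 19 fibril-associated genes were lower (Kera, Dpt, Tnxb, Col6a3, Aspn and Col6a1, from -2.97 to -0.59), with P4hb, Lox, Loxl2 and Mmp14, beside 1.36% of all genes. CT1 alone had Lum, Ogn, Mmp9, Mmp13, P4hb and Serpinh1 lower, beside 1.75% of all genes, and Tll1 higher (0.69), beside 0.326%. The background type moved as well. In osteoclasts 9 of the 16 fibril-associated genes tested were lower, from Ogn (-1.23) and Col6a1 (-1.11) to Fn1 (-0.69), with Lox (-1.01), Serpinh1 (-0.84), P4hb (-0.83) and Mmp9 (-0.61), beside 2.32% of all genes. Matured osteoblasts had Aspn (-1.57), Ogn (-1.27), Lum (-0.93) and Col12a1 (-0.86) lower, of 15 fibril-associated genes tested and beside 0.6% of all genes. Hypertrophic chondrocyte/osteoblast nuclei had Col14a1 (-0.94), Lum (-0.76) and Aspn (-0.73) lower, of 19 and beside 0.939%, and matured chondrocytes had P3h2 (-0.97) lower, beside 0.609%. In osteoblasts 0 genes of the 5 lists were called, beside 0.18% of all genes called lower, and the fibril-associated list had a median log2 change of -0.67. Over all PTB nuclei 7 fibril-associated genes were lower (Kera, Dpt, Tnxb, Aspn, Col6a1, Col6a2 and Col6a3, from -3.15 to -0.62), beside 1.04% of all genes.

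Meningeal cells of the PF/F went the other way. Of the 5 members tested there, Col1a2 (0.74), Col1a1 (0.62) and Col5a2 (0.61) were called higher in batch 2, where 1.35% of all genes were, and Col3a1 was at 0.34. Of the collagen lists only Sec24d was called, also higher (0.74). Over all PF/F nuclei 0 of 6 members were called, beside 6.2% of genes, and the list genes Tnxb (-0.62) and Loxl1 (-0.61) were lower, beside 4.16%. Pericytes had 0 called of the 2 members and 1237 genes tested, and endothelial cells 0 of 1 member and 4447 genes (96 and 281 genes had an edgeR unadjusted p under 0.05).

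**Figure D5:**
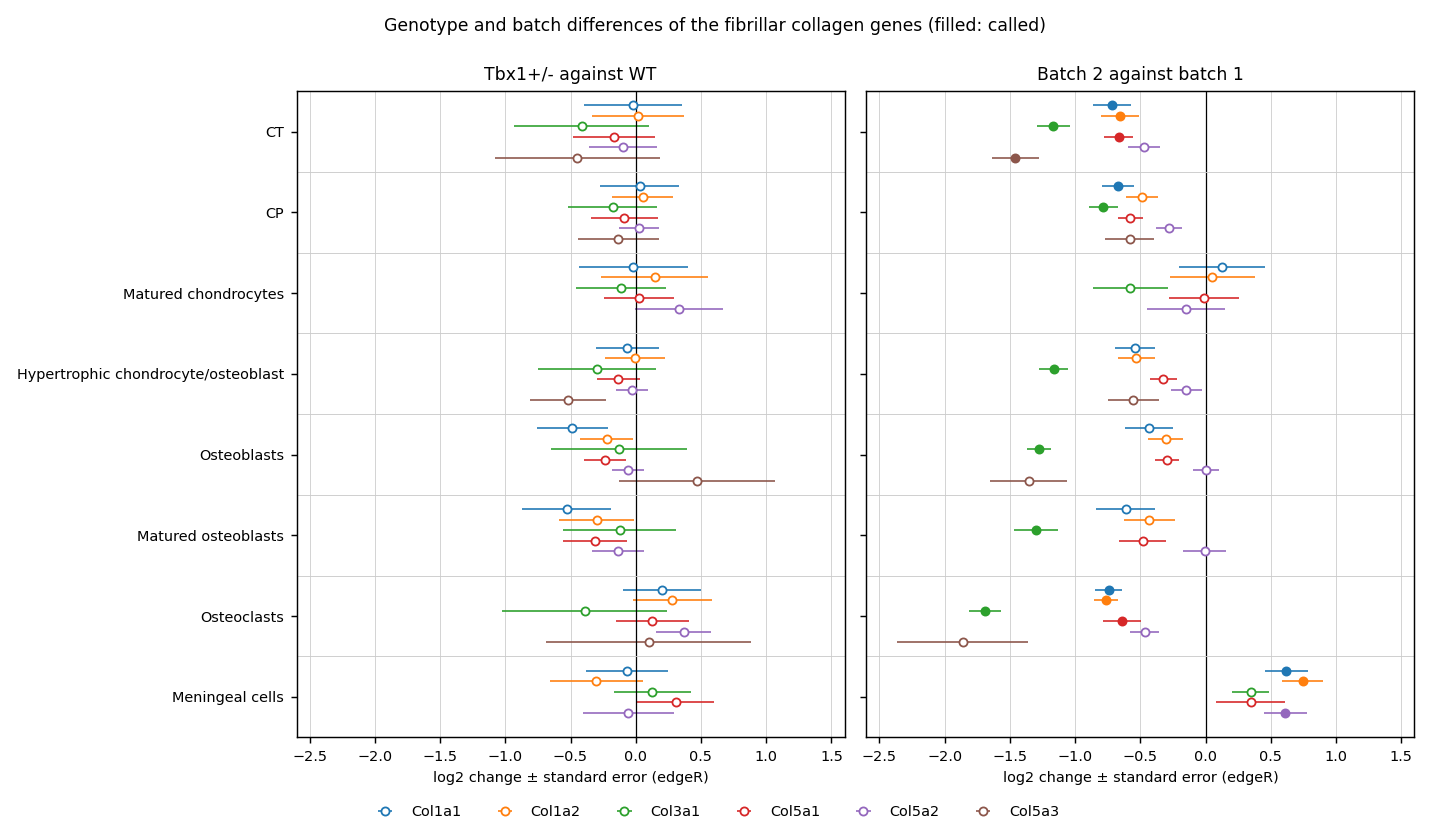
Log2 change ± SE (x axis) of each gene (colours) in 8 classes (y axis), for Tbx1+/- against WT on the left and batch 2 against batch 1 on the right, from edgeR with 4 libraries per fit, filled where called. No point on the left, from fits with no batch term, is filled. On the right Col3a1 is filled on the lower side in 6 of the 7 PTB classes, the osteoclast background among them. On the higher side 3 meningeal points are filled.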

How the data were processed

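Nuclei were counted with the 10x Genomics 3′ v3.1 kit. The deposited count values are whole UMIs, which the authors obtained with Cell Ranger 7.0.0 (intron mode, mm10). They precede the authors' filters and their SoupX correction for free RNA, which was not repeated here. Cell types are those of the authors' annotation, made after Louvain clustering, and no doublet caller was run. UMIs were summed per library and type (Python 3.11.15, numpy 2.4.6, pandas 2.3.3, scipy 1.17.1).

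Sums were compared with edgeR 4.0.16 (filterByExpr, TMM, quasi-likelihood test across all genes) in R 4.3.3, and with DESeq2 1.42.0 as an alternative. SE is the log2 change over √F. On simulated sums of CT, CP and osteoblasts, 200 genes had a log2 change of 1. Of these edgeR called 84%, 80% and 77%, DESeq2 69.5%, 72% and 63%, and the batch test 82%, 75% and 83%. Between 2 and 12 unchanged genes were called. The simulated sums had the same dispersion for every gene and, for the genotype tests, no difference between batches, which the real libraries had. Whether the rest of the spread in these sums matched that between the real libraries was not tested. The shares are therefore not read as the power of the genotype test in the real libraries.

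The study describes replicates 1 and 2 as separate batches of animals. Across genes, the deviation of a WT library from its genotype mean correlated with that of the Tbx1+/- library of its batch at 0.557 in all PTB and 0.715 in all PF/F nuclei, so the numbers pair the libraries, and a fit with that block was also made. Further settings were RLE factors, low counts kept, each library left out, nuclei with at least 2000 genes, leaving out the 8% of nuclei with most UMIs, UMIs per nucleus and thinning to 2000 UMIs. CT1 alone and subtraction of the osteoclast level were added after seeing the data. Replicates differed by a chi-square per degree of freedom of 31.4 to 69.9 over genes.

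The members and gene lists were chosen with earlier results of these data known. Genes named are the members, the 3 genes nearest to each by Pearson r of mean log2(CPM + 1) among those with at least 50 CPM in some type, list genes called, and abundant list genes. Coordinates are from GENCODE for GRCm38. Protein sequences were not analysed here.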

Additional observations from a re-analysis of the deposited data

Results flagged for a closer look

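The members were present in barcodes with at least 1000 detected genes that the annotation leaves out and no comparison used. In these PTB barcodes the means of 4 libraries were 3814 CPM for Col1a1, 3255 for Col1a2, 564 for Col3a1, 142 for Col5a1, 727 for Col5a2 and 16.7 for Col5a3. In the PF/F they were 9.52 CPM for Col1a1, 14.1 for Col1a2, 22.6 for Col3a1, 10.7 for Col5a1, 22.5 for Col5a2 and 1.83 for Col5a3. The PTB values lay between those of osteoclasts and osteoblasts in every library for Col1a1, Col1a2, Col5a1 and Col5a2.

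Some members moved in opposite directions in the 2 tissues, in both pairs of libraries, and these differences were not tested. Only comparisons that met this rule are given, and the others are left out. By genotype only Col3a1 and Col5a1 met it, and by batch over all nuclei only Col5a1 and Col5a2. The share of all genes that met the rule was not counted. The members were lower in batch 2 than in batch 1 in CT of the PTB and higher in meningeal cells of the PF/F. The difference of the log2 changes was -1.40 for Col1a1 (-0.73 and 0.67), -1.47 for Col1a2 (-0.67 and 0.80), -1.57 for Col3a1 (-1.18 and 0.39), -1.07 for Col5a1 (-0.68 and 0.39), -1.18 for Col5a2 (-0.49 and 0.69) and -2.44 for Col5a3 (-1.53 and 0.91), the last resting on 19 meningeal UMIs. Over all nuclei of each tissue the batch difference was -0.74 for Col5a1 and -0.22 for Col5a2.

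By genotype, Tbx1+/- minus WT, Col3a1 was lower in all PTB nuclei (-0.30) and higher in all PF/F nuclei (0.41), a log2 difference of -0.71, and Col5a1 gave -0.19. For CT against meningeal cells the log2 differences were -0.55 for Col3a1 (-0.41 and 0.14) and -0.49 for Col5a1 (-0.19 and 0.30). The same 2 batches underlie both tissues, and with 2 libraries a group no test for a lone extreme library was possible.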

How the results depend on the processing

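The count of members called by genotype stayed at 0 in every class when DESeq2 or RLE factors were used, when low counts were kept, in nuclei with at least 2000 genes and without the 8% of nuclei with most UMIs, except that no member passed the filter in pericytes or endothelial cells among nuclei with at least 2000 genes. Leaving out single libraries gave 0 to 1 called members in osteoblasts, 0 to 2 in matured osteoblasts and 0 to 4 in osteoclasts, and 0 elsewhere. Under the same settings the log2 changes ran from -0.84 to -0.05 for Col1a1 and -0.46 to 0.040 for Col1a2 in osteoblasts. They ran from -0.99 to 0.17 for Col1a1 in matured osteoblasts and from -1.10 to 0.28 for Col3a1 in CT (0.05 without Tbx1+/- replicate 2). For Col3a1 they ran from -0.083 to 0.39 in meningeal cells and from 0.34 to 0.51 in all PF/F nuclei. Those of Col5a2 in osteoclasts ran from 0.12 to 0.65. WT replicate 1 decided the upper end of the first 4. The genotype difference in the log2 ratio of Col1a1 to Col1a2 ran from -0.087 to 0.045 in CT, -0.38 to -0.087 in osteoblasts and -0.21 to -0.0093 over all PTB nuclei. That of Col3a1 to type I ran from -0.66 to -0.17 in CT, from -0.38 to 0.79 in osteoblasts (-0.11 without WT replicate 2) and from -0.59 to 0.091 over all PTB nuclei (0.06 without WT replicate 1). The members' median log2 change ran from -0.37 to 0.24 over all PTB nuclei and from -0.44 to -0.0038 in osteoblasts. Where a library was left out, its lone partner was taken to vary as the other genotype does. Genotype and batch are not balanced in such fits, so these ranges hold the difference between batches as well. The batch test was not run with a library left out, since no residual degree of freedom remains.

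With the replicate block, which follows the pairing of the libraries by batch, 0 members were called, and the log2 change of Col1a1 in osteoblasts was -0.43 (SE 0.18). The genes called by genotype rose from 0 to 24 in CT, 14 in CT1, 18 in matured chondrocytes, 4 in matured osteoblasts, 3 in osteoclasts and 24 in meningeal cells. Without the filter they numbered 1 to 17 in 7 classes and 17 and 20 in the comparisons between classes.

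For batch, 1 member was called in CT1 alone against 5 in CT, and 1 in CP with RLE factors against 2, where Col1a1 had an edgeR adjusted p of 0.0682. RLE factors also changed the genes called from 293 to 96 in CP, 31 to 15 in osteoblasts and 69 to 115 in matured osteoblasts.

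As UMIs per nucleus, the log2 ratio of CT1 to osteoclasts was 1.87 for Col3a1 (2.48 in CPM) and 1.68 for Col5a1 (2.35 in CPM), and that of Purkinje cells to granule neurons was 5.78 for Col5a1 (4.67 in CPM). Thinned to 2000 UMIs, the shares of nuclei with a UMI rose to 99.8% for Col1a1, 99.9% for Col1a2 and 98.1% for Col5a2 in osteoblasts, and to 85.6% for Col3a1, 46.9% for Col5a1 and 9.88% for Col5a3 in CT1. In the PF/F they rose to 37.9% for Col1a1, 48.4% for Col1a2 and 64.7% for Col3a1 in meningeal cells, 6.34% for Col5a1 in Purkinje cells, 29.1% for Col5a2 in GABA interneuron progenitors and 4.87% for Col5a3 in early rhombic lip nuclei. Depth limits Col5a3, with 19 UMIs in all meningeal nuclei.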
